A study of Mus musculus with 55 samples.

Results

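The genes described here are the cathepsins, the LAMP proteins, the subunits of the vacuolar ATPase and 11 further lysosomal genes in the optic nerve head (ONH) of the mouse after optic nerve crush. They were taken as every gene with a probe set of its own whose symbol begins with Cts, Lamp, Atp6v or Atp6ap, together with Gla, Galns, Lipa, Gusb, Hexa, Neu1, Asah1, Npc1, Npc2, Man2b1 and Glb1. This gave 53 genes of 12393 that have a probe set naming no other gene, and the probe set with the highest mean intensity stood for each gene. The 53 genes comprised 14 cysteine cathepsins, 4 aspartic and serine cathepsins, 9 hydrolases of sugars and lipids, 2 genes of cholesterol export, 3 membrane proteins, 12 genes of the V1 sector, 7 of the V0 sector and 2 accessory subunits. Of them 46 were bright enough to be tested at the first 4 times after crush, 44 at 3 months and 45 against naïve tissue.

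The lysosome is the acidic compartment in which cells break down material taken up from outside or delivered by autophagy. Its lumen holds proteases of the cathepsin family and hydrolases that remove sugars, sulfates, lipids and sialic acid from their substrates. The vacuolar ATPase, a rotary pump with a V1 sector that splits ATP and a V0 sector that carries protons across the membrane, keeps the lumen acidic, and the LAMP glycoproteins line the membrane from inside. Microglia and macrophages are known for a large lysosomal system, with which they digest myelin and axon debris after nerve injury. Many genes of the compartment carry a short E-box sequence near their start, the core of the CLEAR element that the transcription factor TFEB binds.

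Affymetrix Mouse Genome 430A 2.0 arrays were used to profile RNA from female C57Bl/6 mice that were 6 to 8 weeks old at surgery. Crushed samples came from left eyes whose nerve had been squeezed 1 mm behind the eye for 10 seconds, contralateral samples from the unoperated right eyes of the same mice, and naïve samples from mice without surgery. Crushed and contralateral tissue was collected at 5 times, namely 1 day and 3 days, 1 week and 3 weeks, and 3 months, with 5 samples in each of the 11 conditions, and each sample pooled 2 ONHs. The left and the right eyes of the same 2 mice made up a crushed and a contralateral sample. Samples of the same number were taken to be such a pair, which the sample labels do not state. Crushed sample 1 is thus paired with contralateral sample 1, and so on. The 10 arrays of 3 months were a second experiment and were compared only among themselves.

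Array medians lay between 459.2 and 553.8 intensity units in the first experiment and between 494 and 598 in the second, and intensities under 20 were set to 20 (0.711% of the values of the tested members). A gene is said to have risen or fallen only where limma's moderated test gave an adjusted p under 0.05 over all probe sets tested at that time. Of 18 microglia and macrophage genes 10 rose and 7 fell at 1 day, and 15, 17 and 16 rose and none fell at 3 days, 1 week and 3 weeks. Over the first 4 times 10, 8, 9 and 9 of 10 oligodendrocyte genes fell, and 11, 6, 10 and 4 of 13 astrocyte genes. Of 11 axon and ganglion cell genes 1, 5, 5 and 7 fell and 2, 3, 1 and 1 rose at these times. At 1 week 4 of 5 neutrophil genes and 5 of 8 T and NK cell genes rose. No photoreceptor gene of 10 passed the test at any time, but their mean level ran from 5.34 to 13.31 on the log2 scale across the arrays, and 2, 0, 1 and 1 of 5 pigment epithelium genes fell over the first 4 times. Tissue was pooled whole, so more RNA per cell and more cells of a type cannot be told apart in any of the values below.

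At 1 day 6 of the 46 members tested rose and 12 fell, against 25.4% and 29.7% of all 10763 genes tested. At 3 days 20 rose and 3 fell, where the shares over all genes were 25.5% and 16%. At 1 week 23 rose and 6 fell, beside 21.7% of all genes in either direction. At 3 weeks 12 rose and 3 fell, against 12% and 12.6% of all genes. These shares over all genes also stand beside the counts of every smaller list, including the cell type lists above. At 3 months none of 44 passed the test, although 5 had an unadjusted p under 0.05, and of all 10468 genes tested then only 0.277% rose and 0.382% fell. The median log2 fold change of the members was -0.06 at 1 day, 0.19 at 3 days, 0.19 at 1 week, 0.09 at 3 weeks and 0.07 at 3 months, while the median over all genes was -0.04, 0.04, -0.01, 0.01 and -0.04.

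Most of the members that rose lay outside the proton pump. Of the 27 tested members outside it 4, 16, 20 and 12 rose and 8, 2, 1 and 1 fell over the first 4 times. Their median log2 fold change was -0.08, 0.30, 0.45 and 0.34 at these times and 0.20 at 3 months. Of the 19 tested genes of the vacuolar ATPase 2, 4, 3 and 0 rose and 4, 1, 5 and 2 fell, with medians of -0.04, 0.05, 0.03 and -0.05, and -0.11 for the 17 tested at 3 months. At 3 days the balance depended on how the arrays were scaled. Scaling every array to a common median lowered the median of all genes by 0.14 on the log2 scale, and then 13 members rose and 9 fell, among them 1 and 6 genes of the proton pump. With quantile normalization, which lowered it by 0.10, 17 rose and 5 fell, and 2 and 3 of the proton pump. The hydrolases kept their direction, with 6 and 7 of 9 risen and none fallen under these scalings, against 8 and 0 without them.

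**Figure D1:**
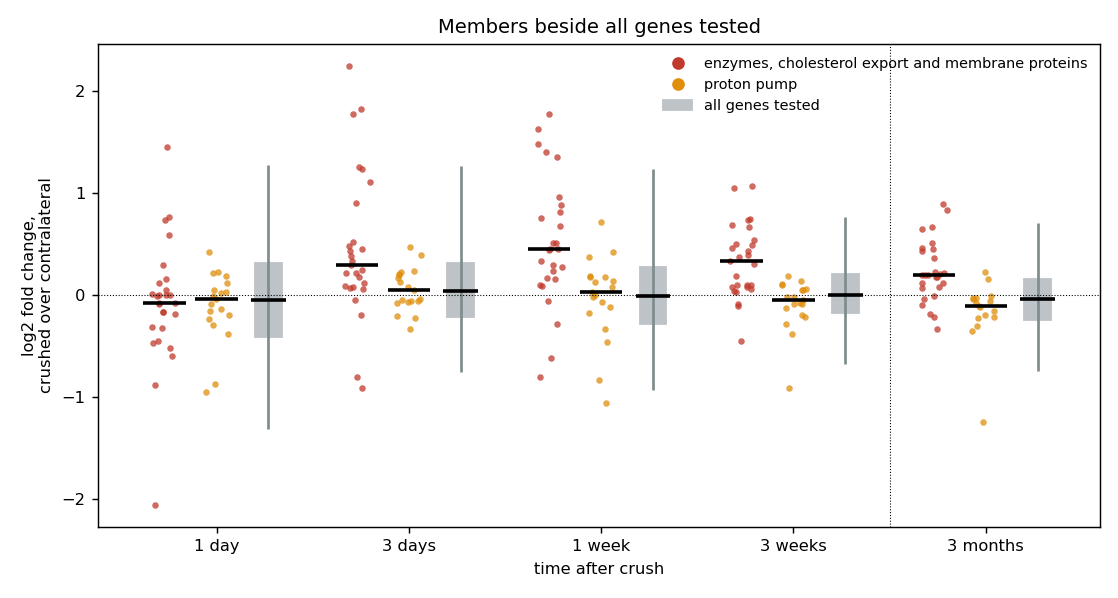
Log2 fold change of crushed over contralateral ONHs (vertical axis) at the 5 times after crush (horizontal axis), one point per tested gene, for the enzymes, cholesterol export genes and membrane proteins (red), the proton pump (orange) and all genes tested (grey bar from the 25th to the 75th percentile, grey line from the 5th to the 95th). Black lines are medians: the red medians lie at 0.30, 0.45 and 0.34 at 3 days, 1 week and 3 weeks, and the orange ones between -0.05 and 0.05 at the same times.

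Changes of at least 2-fold were few. At 1 day Gla rose that far and Ctsf fell that far, beside 6.87% and 8.2% of all genes. At 3 days Gla, Galns, Gusb, Lipa, Ctse and Ctsw rose at least 2-fold and no member fell so, beside 7% and 2.47%. At 1 week Gla, Galns, Gusb, Lipa and Ctse did, with Atp6v1g2 on the other side, beside 6.53% and 3.92%. At 3 weeks Galns was the one member past 2-fold and none was lower, beside 2.76% and 1.77%, and at 3 months there was none in either direction, beside 0.248% and 0.258%. The number lower by 2-fold at 1 day was 2 without sample 3 and 3 without sample 4, that at 3 days was 1 without sample 5, that at 1 week was 0 without sample 1, 3 or 4, and the number higher at 3 weeks was 0 without sample 2.

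**Figure D2:**
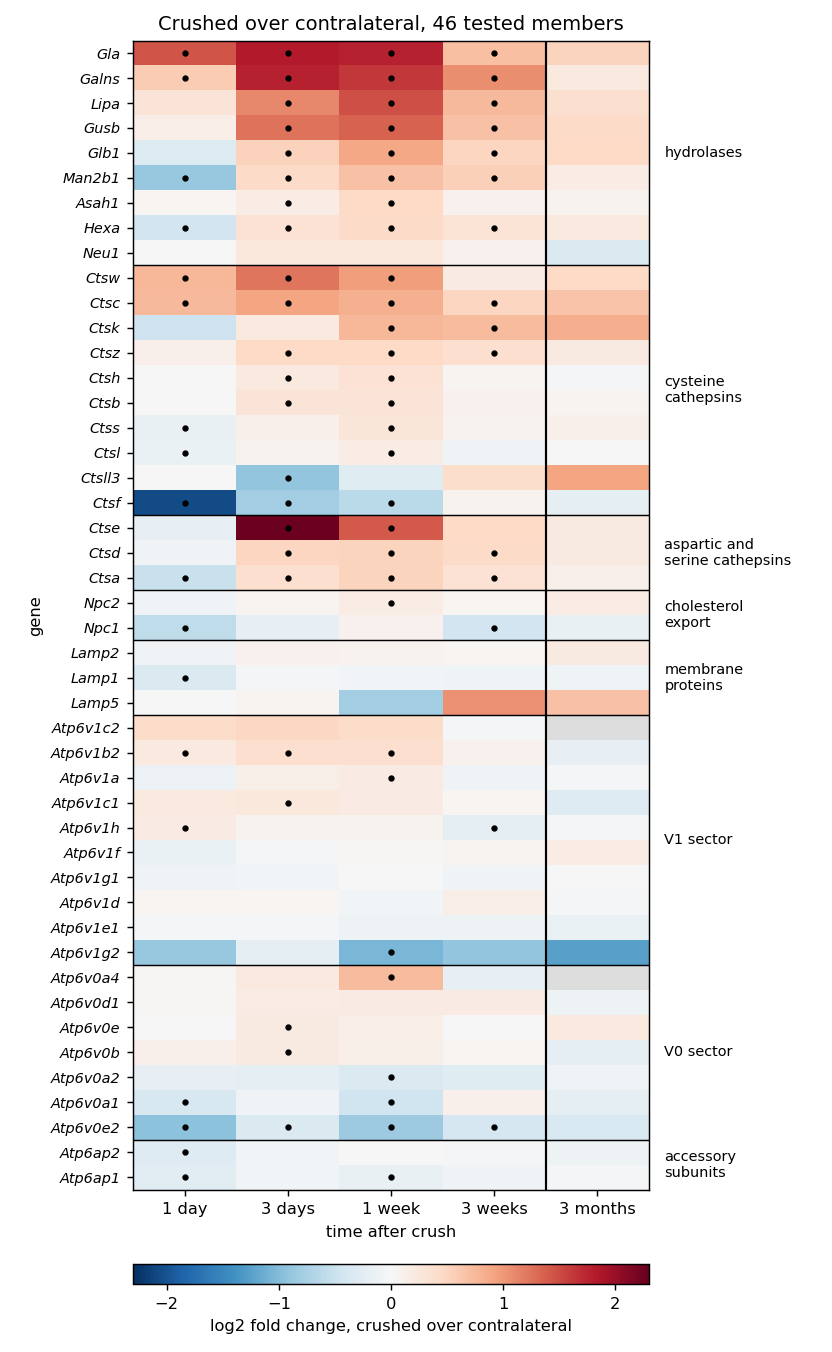
Log2 fold change of crushed over contralateral ONHs for the 46 tested members (rows, grouped by role) at the 5 times (columns), red for higher and blue for lower in crushed tissue, with a dot where the adjusted p was under 0.05 and grey where a gene was not tested. Every hydrolase row but that of Neu1 has a dot at 3 days and 1 week, dots are sparse in the V1 and V0 sectors, and the column for 3 months holds none.

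The promoters of 41 members were found in a RefSeq table of mouse promoters (GRCm38.p6), each covering 250 bases before to 50 bases after the gene's start. The E-box CACGTG, which reads the same on both strands, was present in 12 of the 41 (29.3%), against 8.09% of the promoters of 27025 genes. The longer form TCACGTGA, also its own reverse complement and always containing a CACGTG, was present in 6 of the 41 (14.6%), against 1.12% of all genes. The stretches that hold it are printed to show the shared letters in a protease, a hydrolase and pump subunits, with every TCACGTGA in capitals.
Atp6v0d1, chr8:105566061-105566114, minus strand: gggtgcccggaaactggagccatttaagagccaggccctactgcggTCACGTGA
Atp6v0e, chr17:26676387-26676416, plus strand: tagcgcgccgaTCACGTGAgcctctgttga
Atp6v1a, chr16:44139338-44139437, minus strand: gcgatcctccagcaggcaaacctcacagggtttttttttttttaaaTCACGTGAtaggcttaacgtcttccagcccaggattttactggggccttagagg
Ctsa, chr2:164833714-164833784, plus strand: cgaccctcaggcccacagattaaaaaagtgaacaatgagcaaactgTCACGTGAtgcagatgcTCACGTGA
Ctsd, chr7:142387873-142387972, minus strand: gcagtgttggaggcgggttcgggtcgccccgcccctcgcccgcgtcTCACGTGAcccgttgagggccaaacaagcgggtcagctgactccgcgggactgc
Gla, chrX:134601147-134601255, minus strand: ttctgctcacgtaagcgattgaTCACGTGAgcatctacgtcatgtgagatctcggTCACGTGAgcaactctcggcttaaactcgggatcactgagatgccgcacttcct

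These 6 genes did not share one time course. Gla rose at all 4 times up to 3 weeks, Ctsa fell at 1 day and rose at the later 3, Ctsd rose at 3 days, 1 week and 3 weeks, Atp6v0e rose at 3 days alone, Atp6v1a rose at 1 week alone, and Atp6v0d1 did not pass the test at any time. As a group 1, 4, 4 and 3 of the 6 rose and 1, 0, 0 and 0 fell over the first 4 times. Of the 12 with any E-box 1, 6, 6 and 4 rose and 4, 2, 1 and 0 fell, and of the 22 tested members with a promoter and no E-box 1, 6, 10 and 7 rose and 7, 1, 4 and 1 fell. Over all genes tested 25.4%, 25.5%, 21.7% and 12% rose and 29.7%, 16%, 21.7% and 12.6% fell at these times. No test was made of the counts of these sets.

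Among the hydrolases, which take sugars, sulfates and lipids off their substrates, 2 of 9 rose and 2 fell at 1 day, 8 rose at 3 days, 8 at 1 week and 7 at 3 weeks with none lower, and their median log2 fold change was 0.05, 0.53, 0.89, 0.54 and 0.23 from 1 day to 3 months. Their mean log2 level lay between 10.91 and 11.44 in crushed and between 10.30 and 10.45 in contralateral samples at 3 days, and between 10.95 and 11.81 in crushed and between 10.22 and 10.63 in contralateral samples at 1 week. The microglia and macrophage list was also higher at these 2 times. Its mean log2 levels were 11.53 to 11.94 in crushed and 10.57 to 11.01 in contralateral samples at 3 days. At 1 week they were 11.46 to 12.25 in crushed and 10.59 to 10.93 in contralateral samples. Of these 18 marker genes 17 were above the floor of 20 in every sample and 1 had 3 values under it. Of 9 neutrophil genes on the array 5 were tested, and only 4 passed the intensity filter with contralateral and naïve arrays alone. At 3 days 3 of the 5 rose and 1 fell, and at 1 week 4 rose and none fell. The list of these 5 was higher in its mean as well. Its mean log2 levels were 8.33 to 9.6 in crushed and 6.03 to 6.80 in contralateral samples at 3 days. At 1 week they were 8.00 to 9.98 in crushed and 6.05 to 6.83 in contralateral samples. These 9 were a chosen set, and hydrolases of the comparison list described below did not all rise. At 1 day Galc, Arsa, Manba, Sgsh and Gaa changed by -1.19, -1.09, -0.86, -0.80 and -0.86, all falls, and none of them passed at 3 days. At 3 days Smpd1 and Ppt1 fell (-0.34 and -0.23), while Pla2g15 and Acp5 rose (0.40 and 4.05). At 1 week Naglu, Ids, Galc, Pla2g15 and Acp5 rose and Smpd1 fell. The part of any cell type in the rise of the hydrolases was not tested.

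Gla, the alpha-galactosidase whose loss causes Fabry disease, showed the highest fold changes of the group from 1 day to 1 week, while at 3 weeks those of Galns and Lipa were higher. At 1 day it read 1168, 1497, 1743, 1224 and 1839.6 in crushed samples 1 to 5, against 540.4, 564, 501, 559 and 520.1 in the contralateral samples, with every crushed sample above every contralateral one. The log2 fold change was 1.45 ± 0.20 (SE, n = 5 pairs, limma adjusted p = 3.78e-06). At 3 days it read 2099, 1569, 2215, 2363 and 2448 in crushed samples and 613, 698, 581, 508 and 586 in contralateral samples, again without overlap, and at 1 week 2251, 2197, 1011, 3148 and 2599 in crushed samples and 527, 667, 662, 559 and 664 in contralateral samples. Crushed sample 3 was the lowest of its group at 1 week but still above all contralateral samples. The log2 fold changes were 1.83 ± 0.20 at 3 days and 1.78 ± 0.20 at 1 week, with limma adjusted p = 4.34e-07 and 7.01e-07 (n = 5 pairs each). By 3 weeks the crushed samples read 709 to 1399 and the contralateral ones 468 to 600.5, a log2 fold change of 0.69 ± 0.20 (limma adjusted p = 0.0169), which did not pass without sample 1 or without sample 2 (0.71 and 0.52). A second and much dimmer probe set for Gla did not pass the test at 1 day, 3 days or 1 week (log2 fold changes of 0.06, -0.16 and 0.23) and rose by 0.83 at 3 weeks.

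Galns, a sulfatase that acts on keratan sulfate and chondroitin sulfate, rose at all 4 times up to 3 weeks. Its log2 fold change at 1 day was 0.59 ± 0.22 (limma adjusted p = 0.0286, n = 5 pairs), a call that was lost without sample 1, 4 or 5 (0.61, 0.55 and 0.59). At 3 days it read 909.5, 710.1, 971, 1072 and 1259 in crushed samples, against 258, 312, 281, 297 and 268 in contralateral samples. At 1 week it read 959.5, 941, 548, 1379 and 1109.6 in crushed samples and 334, 272, 471, 270.4 and 231 in contralateral samples, and at 3 weeks 356, 579, 394, 377 and 375 in crushed samples and 238, 178, 182, 175 and 209 in contralateral samples. Crushed and contralateral samples did not overlap at any of these 3 times. The log2 fold changes were 1.78 at 3 days, 1.63 at 1 week and 1.07 at 3 weeks, each with an SE of 0.22 (n = 5 pairs), at limma adjusted p = 2.27e-06, 6.42e-06 and 0.00142.

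Lipa, the acid lipase that splits cholesteryl esters and triglycerides, reached its highest fold change at 1 week. It then read 4196, 3946, 2816, 5246 and 4285 in crushed samples and 1579.6, 1513, 1574, 1204 and 1367 in contralateral samples, and at 3 weeks 2086, 2954, 2388, 1987 and 2332 in crushed samples and 1360, 1431, 1186, 1519.8 and 1436 in contralateral samples. All crushed samples exceeded all contralateral samples at both times. The log2 fold change was 1.48 ± 0.14 at 1 week (limma adjusted p = 6.44e-08, n = 5 pairs) and 0.75 ± 0.14 at 3 weeks (limma adjusted p = 0.00052, n = 5 pairs), after 1.11 ± 0.14 at 3 days and 0.30 ± 0.14 at 1 day, the last with an adjusted p of 0.0721 by limma. The other probe sets of Lipa gave 1.91 and 2.22 at 1 week.

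Man2b1, the lysosomal alpha-mannosidase, fell before it rose. At 1 day it read 1131, 916, 1399.9, 911 and 1129 in crushed samples, against 1960, 1868, 2116, 1959 and 2062 in contralateral samples, and every crushed sample lay below every contralateral one (log2 fold change -0.88 ± 0.17, limma adjusted p = 0.000213, n = 5 pairs). It then rose by 0.44 at 3 days, 0.68 at 1 week and 0.54 at 3 weeks, each ± 0.17, at limma adjusted p = 0.0474, 0.00327 and 0.0275 (n = 5 pairs). The call at 3 days did not survive leaving out sample 1, 3, 4 or 5 (0.51, 0.38, 0.45 and 0.34), and that at 3 weeks was lost without sample 2, 3 or 4 (0.48, 0.47 and 0.51). A second probe set, with a mean intensity of 278, gave 0.16 at 1 day and -0.02 at 3 days, neither past the test, and rose by 1.33 at 1 week.

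Of the other hydrolases Gusb, Glb1 and Hexa rose at 3 days, 1 week and 3 weeks. Gusb, the beta-glucuronidase, rose by 1.25 at 3 days, 1.36 at 1 week and 0.67 at 3 weeks on the log2 scale, with crushed samples between 3549 and 5792 and contralateral samples between 1489.8 and 2596 at 1 week. Glb1, the beta-galactosidase, rose by 0.53, 0.89 and 0.49 at the same times. Hexa, the alpha subunit of beta-hexosaminidase, fell by 0.45 at 1 day and rose by 0.34, 0.45 and 0.31 afterwards. Asah1, the acid ceramidase, rose by 0.18 at 3 days and 0.45 at 1 week and did not pass the test at 3 weeks (0.10), and for Neu1, the lysosomal sialidase, the log2 fold changes of 0.00 to 0.25 did not pass the test at any time up to 3 weeks.

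**Figure D3:**
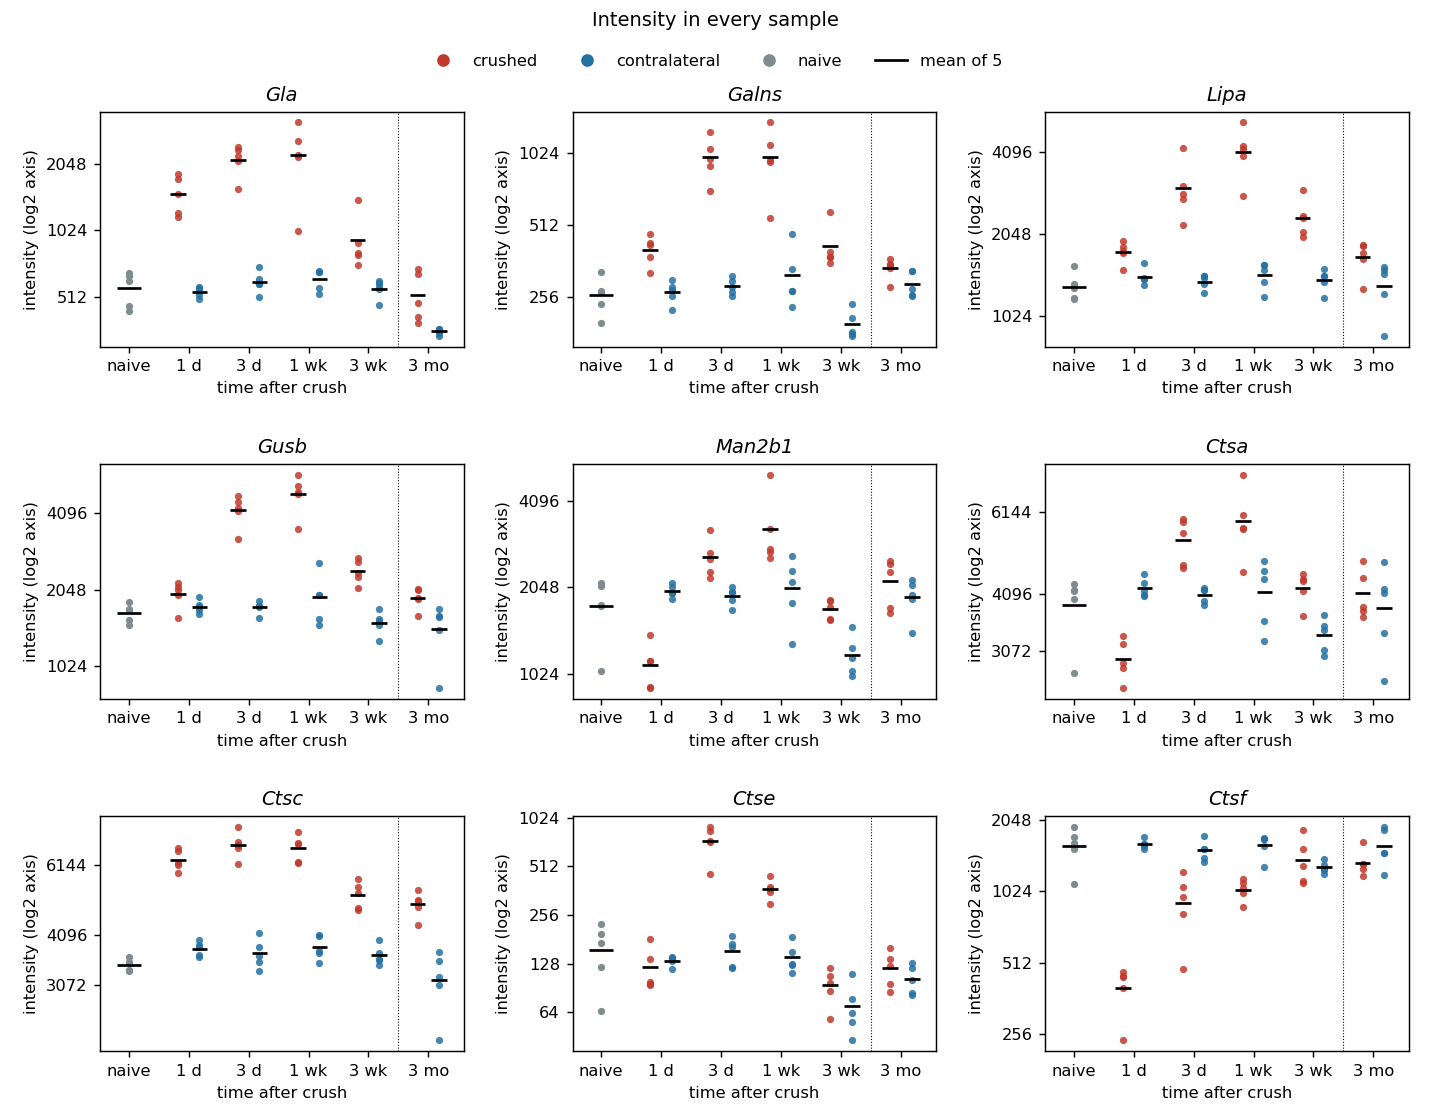
Intensity (vertical axes, log2 scale) of 9 members in every sample of naïve ONHs and of crushed (red) and contralateral (blue) ONHs at each time (horizontal axes), with a black line at the mean of 5 and a dotted line before the second experiment. The crushed samples of Gla, Galns, Lipa and Gusb stand clear of the contralateral ones at 3 days and 1 week, while those of Ctsf and Man2b1 lie below them at 1 day.

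Among the 13 tested cathepsins, proteases that cut proteins inside the lysosome, 2 rose and 4 fell at 1 day, 8 rose and 2 fell at 3 days, 11 rose and 1 fell at 1 week, and 5 rose and none fell at 3 weeks. Ctsc, which trims dipeptides and activates the serine proteases of immune cell granules, rose at every time up to 3 weeks. At 1 day it read 6208, 6137, 6752, 5845 and 6638 in crushed samples and 3608, 3821, 3861, 3647 and 3978 in contralateral samples. The groups were far apart (log2 fold change 0.74 ± 0.06, limma adjusted p = 9.79e-09, n = 5 pairs), and the fold changes that followed were 0.90, 0.82 and 0.50. At 3 months Ctsc read 5298, 5005, 4975, 4346 and 4811 in crushed samples and 2236, 3538, 3077, 3719 and 3228 in contralateral samples, with no overlap and a log2 fold change of 0.65 ± 0.15 that did not pass the test (limma adjusted p = 0.124, n = 5 pairs).

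Ctsw, a cysteine cathepsin known from cytotoxic T and NK cells, also rose at 1 day. It read 187, 214, 182, 248 and 198 in crushed samples and 133, 143, 97.4, 101 and 136 in contralateral samples, without overlap (log2 fold change 0.76 ± 0.24, limma adjusted p = 0.012, n = 5 pairs). It rose by 1.24 at 3 days and 0.97 at 1 week. The list of T and NK cell genes had 3, 1, 5 and 4 of 8 members higher and 1, 0, 0 and 0 lower over the first 4 times, and its mean log2 level ran from 6.38 to 7.29 in crushed and from 6.15 to 6.43 in contralateral samples at 3 days. The part of these cells in the values of Ctsw was not tested.

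Ctse, an aspartic protease of endosomes in immune cells, showed the largest rise of any member. At 3 days it read 462, 720.4, 901, 854 and 736 in crushed samples and 122, 163, 121, 189.6 and 169.6 in contralateral samples, and the lowest crushed sample was above the highest contralateral one. Its log2 fold change was 2.25 ± 0.20 (limma adjusted p = 3.25e-08, n = 5 pairs), followed by 1.40 ± 0.20 at 1 week (limma adjusted p = 1.40e-05). At 1 day it was -0.19 and at 3 weeks 0.46, neither past the test. A second, dimmer probe set for Ctse ran later, with 0.34 at 3 days, which did not pass the test, and rises of 2.40 at 1 week and 1.83 at 3 weeks.

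Ctsf, a cysteine cathepsin whose loss in humans causes a form of neuronal ceroid lipofuscinosis, showed the largest fall of any member, and at 1 week it was the one cathepsin that fell while 11 rose. At 1 day it read 467, 400.3, 448, 444 and 242 in crushed samples and 1723, 1541, 1619, 1621 and 1592 in contralateral samples. At 3 days it read 480 (sample 1), 1229, 970.2, 1068 and 820.2 in crushed samples and 1411, 1543, 1741, 1546 and 1365 in contralateral samples, and at 1 week 876, 1113, 1005, 1052 and 1154 in crushed samples and 1579.5, 1697, 1706, 1713 and 1292 in contralateral samples. No crushed sample reached the contralateral range at these 3 times. Its log2 fold change was -2.05, -0.80 and -0.62, each ± 0.15 (limma adjusted p = 1.21e-09, 0.000284 and 0.00266, n = 5 pairs), and 0.08 at 3 weeks, when crushed samples ran from 1108 to 1857 and contralateral ones from 1214 to 1403.

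Ctsk, known for cutting collagen in osteoclasts, rose late. At 3 weeks it read 1649, 1247, 1720.1, 1674 and 1295 in crushed samples and 828, 1033, 696, 912 and 1102 in contralateral samples, without overlap (log2 fold change 0.74 ± 0.21, limma adjusted p = 0.0163, n = 5 pairs), after 0.76 at 1 week. The call at 3 weeks was lost without sample 1 or sample 3 (0.67 and 0.59). Ctsll3, a cathepsin L-like gene of rodents, was dim throughout, and at 3 days it read 40.1, 43.9, 25.7, 36.9 and 46.1 in crushed samples and 106, 78.6, 52.5, 61.3 and 66.95 in contralateral samples. The groups did not overlap, and its log2 fold change was -0.91 ± 0.22 (limma adjusted p = 0.00258, n = 5 pairs).

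The remaining cathepsins moved less. Ctsd, the main aspartic protease of the lysosome, rose by 0.49 at 3 days, 0.51 at 1 week and 0.43 at 3 weeks, with no overlap between the groups at these times. Ctsz rose by 0.45, 0.45 and 0.38 at the same times. Ctsa, which stabilises beta-galactosidase and sialidase, fell by 0.52 at 1 day and rose by 0.38, 0.51 and 0.34 afterwards. Ctsb and Ctsh rose by 0.30 and 0.22 at 3 days and by 0.30 and 0.33 at 1 week. Ctss, a protease of antigen-presenting cells, and Ctsl both fell at 1 day, by 0.17 and 0.16, and rose at 1 week by 0.28 and 0.16.

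For 20 of the tested members several probe sets were present, and for no gene did 2 of them pass the test in opposite directions at the same time. The size of a change differed between them. For Ctsb the brightest probe set, which stood for the gene, rose by 0.30 at 1 week, and the 3 dimmer ones, with mean intensities of 6371, 2691 and 2494, rose by 0.83, 1.06 and 1.61. At 3 weeks the brightest one did not pass the test (0.10) and the other 3 rose by 0.57, 0.56 and 0.92. Lamp2, whose brightest probe set did not pass the test at any time, fell at 1 day by 0.26 and 0.35 and rose at 1 week by 0.15 and 0.41 on its 2 dimmest probe sets. The second probe set of Atp6v1g1 rose by 0.29 at 1 day and 0.29 at 1 week, whereas the brightest gave -0.09 and 0.00, neither past the test. Why the probe sets differed was not tested.

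**Figure D4:**
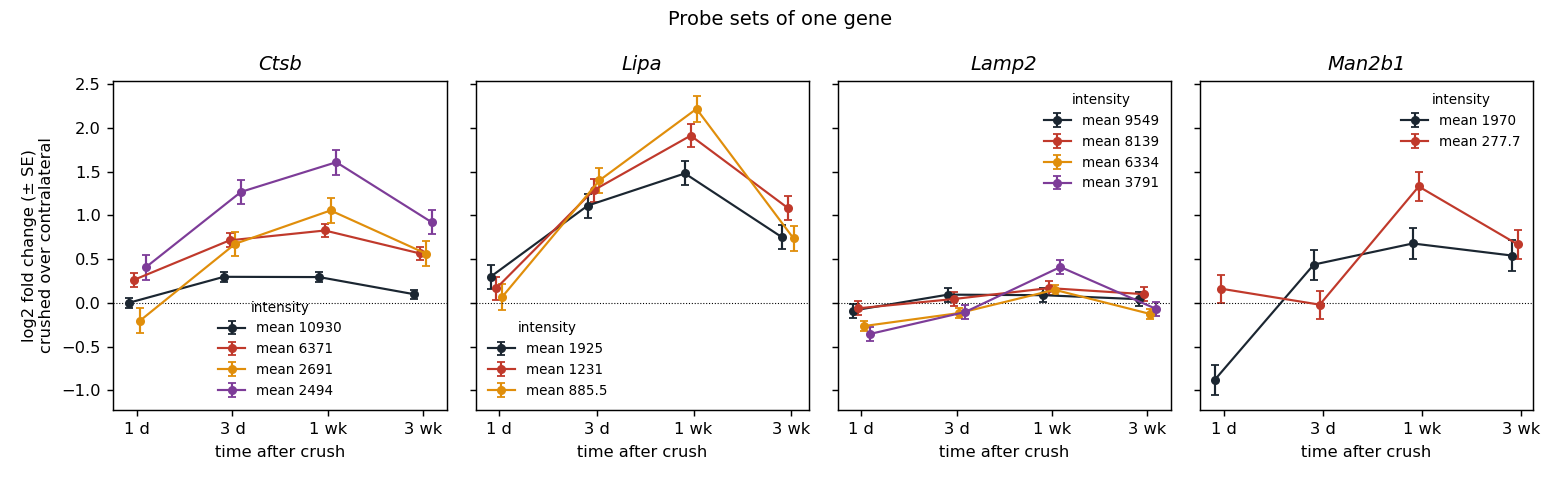
Log2 fold change of crushed over contralateral ONHs (vertical axis, bars are ± SE) at the first 4 times (horizontal axes) for each probe set of Ctsb, Lipa, Lamp2 and Man2b1, named by its mean intensity. For Ctsb the black line of the brightest probe set stays at 0.30 at 1 week, under the other 3 at 0.83, 1.06 and 1.61.

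Of the 5 tested genes of cholesterol export and the membrane, Npc1 and Lamp1 fell at 1 day, when 29.7% of all genes did, and the other 3 did not pass the test. Npc1, which moves cholesterol out of the lysosome, read 1605, 1137, 1672, 1219 and 1324 in crushed samples and 2251, 1958, 2508, 1799 and 1917 in contralateral samples at 1 day, without overlap (log2 fold change -0.59 ± 0.14, limma adjusted p = 0.00139, n = 5 pairs). At 3 weeks it read 1045, 1844, 1325, 1067 and 1432 in crushed samples and 1625, 1694, 1758, 1749 and 2168 in contralateral samples, and the groups overlapped. At 3 weeks the log2 fold change was -0.45 ± 0.14 (limma adjusted p = 0.0271, n = 5 pairs) and did not pass without sample 1, 4 or 5 (-0.40, -0.38 and -0.41). Npc2, its soluble partner, rose by 0.17 at 1 week.

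Lamp1, a main glycoprotein of the lysosomal membrane, read 8526, 7932, 8348, 8376 and 8404 in crushed samples and 10177, 10587, 10170, 10466 and 10640 in contralateral samples at 1 day. All crushed samples were below all contralateral ones (log2 fold change -0.32 ± 0.06, limma adjusted p = 0.000164, n = 5 pairs). From 3 days to 3 months its log2 fold changes of -0.10 to -0.05 did not pass the test.

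In the proton pump 5 of 19 genes passed the test at more than 1 time, and the falls belonged to Atp6v0e2, Atp6v1g2, Atp6v0a1, Atp6v0a2, Atp6v1h and both accessory subunits. Atp6v0e2, a small V0 subunit known from brain, fell at all 4 times up to 3 weeks. At 1 day it read 2183, 1616, 2594, 2093 and 1629.9 in crushed samples and 4244, 3906, 3947, 3494 and 3697 in contralateral samples, and at 3 days 2097, 4248, 2925, 3239 and 2747 in crushed samples and 3786, 3759.7, 3958, 3548 and 3645 in contralateral samples. At 1 week it read 2170, 2889, 2292, 1892 and 2504 in crushed samples and 3913, 4119, 4458, 4605 and 3628 in contralateral samples, and at 3 weeks 2383, 2458, 3035, 2793 and 2411 in crushed samples and 3471, 3016, 3651, 3332 and 3531 in contralateral samples. The groups were apart at 1 day and 1 week and overlapped at 3 days and 3 weeks. The log2 fold changes were -0.95, -0.33, -0.83 and -0.38, each ± 0.12 (limma adjusted p = 1.97e-06, 0.0387, 2.12e-05 and 0.031, n = 5 pairs). Without sample 1, 3 or 5 the call was lost at 3 days (-0.20, -0.30 and -0.31) and at 3 weeks (-0.34, -0.41 and -0.34).

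Atp6v1g2, the G subunit found in neurons, passed the test at 1 week alone. It read 319, 312, 366, 246 and 675 in crushed samples and 575, 689, 575, 1942 and 535 in contralateral samples, and the groups overlapped through crushed sample 5. Its fitted log2 fold change was -1.06 ± 0.38 (limma adjusted p = 0.0293, n = 5 pairs), and it did not pass without sample 1, 3 or 4 (-1.11, -1.16 and -0.58). At 1 day, 3 weeks and 3 months the values of -0.86, -0.91 and -1.24 did not pass the test, although all 5 pairs were lower on the crushed side at each of these times.

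This gene and several others were highest where photoreceptor transcripts were highest. The sample with the highest mean photoreceptor level in its group also had the highest Atp6v1g2, Lamp5, Atp6v0e2 and Atp6v1b2 in 10 of 11 groups each, and the highest Atp6v0a1 and Ctsf in 9. At 1 week contralateral sample 4 had the highest photoreceptor level of its group (12.79) and 1942 for Atp6v1g2, and crushed sample 5 the highest of its own (11.97) and 675. Lamp5, a LAMP relative known from neurons and singled out after its values were seen, read 13.2 to 922 in crushed and 22.9 to 1697 in contralateral samples at 1 week and did not pass the test at any time. With the photoreceptor level of each array as a covariate, a fit added after the data had been seen, the log2 fold change of Atp6v1g2 at 1 week was -1.01 and still passed the test. The part of retinal tissue in the values of these genes was not tested further.

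**Figure D5:**
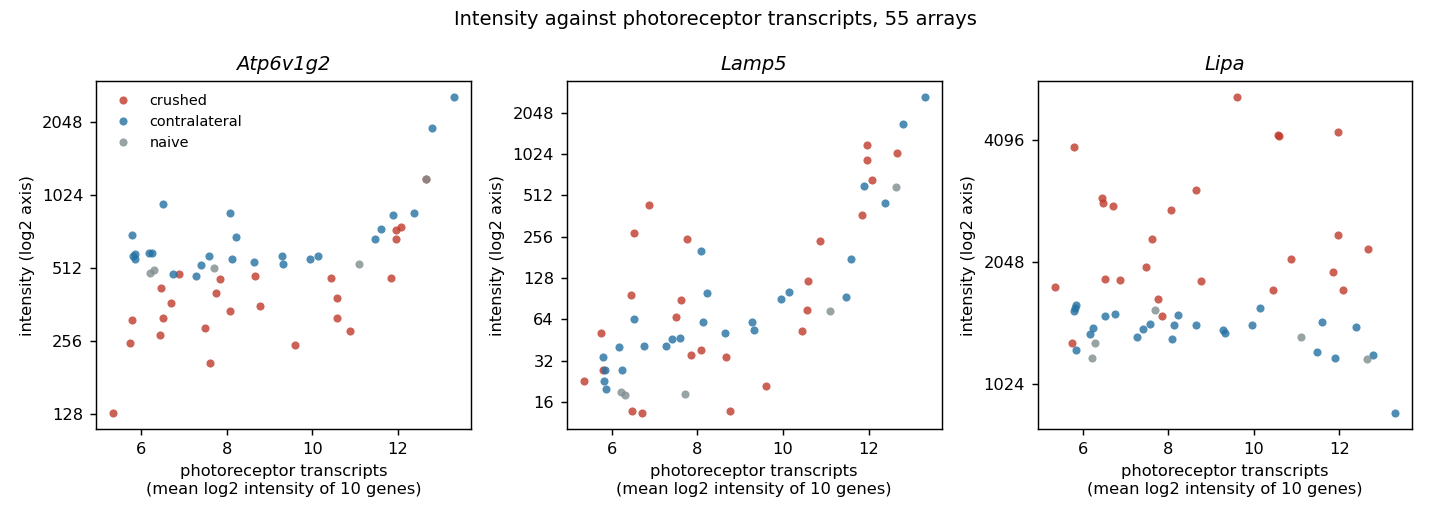
Intensity of Atp6v1g2, Lamp5 and Lipa (vertical axes, log2 scale) against the mean log2 intensity of 10 photoreceptor genes (horizontal axes) in all 55 arrays, coloured by crushed, contralateral and naïve ONHs. The highest points of Atp6v1g2 and Lamp5 lie at the right end, with contralateral sample 4 of 1 week at 1942 and 1697, while the crushed samples of Lipa are spread along the whole axis.

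Atp6v1h, the regulatory H subunit, rose by 0.19 at 1 day and fell at 3 weeks, when it read 2492, 2322, 2698, 2285 and 2262 in crushed samples and 2618, 2872, 2765, 2764 and 2918 in contralateral samples. The groups overlapped through crushed sample 3. The log2 fold change was -0.21 ± 0.06 (limma adjusted p = 0.00915, n = 5 pairs) and did not pass without sample 2 or sample 5 (-0.19 and -0.17). Atp6ap2, an accessory subunit also known as the prorenin receptor, read 6286, 6144, 6582, 6100 and 5788 in crushed samples and 7729, 7559.5, 7374, 7551 and 7594 in contralateral samples at 1 day. No crushed sample reached the contralateral range (log2 fold change -0.29 ± 0.04, limma adjusted p = 8.59e-06, n = 5 pairs), and its other 2 probe sets gave -0.28 and -0.32, both past the test.

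Of the other pump genes, Atp6v1b2, the widely expressed B subunit of V1, rose by 0.23 at 1 day, 0.40 at 3 days and 0.38 at 1 week. Atp6v1c1 rose by 0.24, Atp6v0b by 0.21 and Atp6v0e by 0.20 at 3 days. Atp6v1a, the catalytic subunit, rose by 0.19 at 1 week. Some dimmer probe sets of these genes passed the test at further times. Those of Atp6v1c1 rose by 0.30 and 0.50 at 1 day and by 0.29 and 0.57 at 1 week. Those of Atp6v0b rose by 0.24 and 0.42 at 1 day, and the second of Atp6v1b2 by 0.41 at 3 weeks. The second of Atp6v1a fell by 0.33 at 1 day. Atp6v0a4, an isoform known from kidney and dim on these arrays (mean intensity 37.8, highest 85.1), rose by 0.72 at 1 week. It passed the intensity filter only with the crushed arrays included, the group in which it was higher. Its call is therefore weak, although it is among the 3 pump genes counted as risen at 1 week. Atp6v0a1, the isoform of neurons, fell by 0.38 at 1 day and 0.46 at 1 week, and Atp6v0a2 fell by 0.33 at 1 week. The dimmer probe sets of Atp6v0a2 gave -0.17 and 0.15 at 1 week, neither past the test, and its dimmest rose by 0.28 at 3 days. Atp6ap1 fell by 0.24 at 1 day and 0.18 at 1 week. Atp6v0d1, Atp6v1c2, Atp6v1d, Atp6v1e1, Atp6v1f and Atp6v1g1 did not pass the test at any time.

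Counted over the 4 times up to 3 weeks, 21 members rose at one or more times and never fell, 10 fell and never rose, 6 did both (Atp6v1h, Ctsa, Ctsl, Ctss, Hexa and Man2b1) and 9 did neither. Of the 27 that rose, 1 had its highest log2 fold change at 1 day, 11 at 3 days, 15 at 1 week and none at 3 weeks. The shares of all genes with these patterns were not counted, so the counts only describe the members. At single times 12% to 25.5% of all genes rose and 12.6% to 29.7% fell. Leaving out 1 sample number changed some of these counts: the members that fell at 1 week numbered 2 without sample 1 or sample 3, those that rose at 3 weeks numbered 7 without sample 1 or sample 2, and those that fell at 3 weeks numbered 1 without sample 1 and 0 without sample 5.

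The difference between neighbouring times was tested as a contrast of the crush effects. From 1 day to 3 days the effect became higher for 17 of the 46 members and lower for none, against 12.4% and 4.24% of all genes. The largest steps were 2.43 ± 0.29 for Ctse, 1.32 ± 0.24 for Man2b1, 1.26 ± 0.22 for Ctsf, 1.19 ± 0.31 for Galns and 1.10 ± 0.20 for Gusb (SE, log2 scale), with limma adjusted p between 1.15e-05 and 0.0135. Scaling to a common median left 10 higher and 1 lower, quantile normalization 14 and 1, and 10 were higher without sample 5.

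Between 3 days and 1 week the effect became higher for Asah1 (0.28 ± 0.07, limma adjusted p = 0.0177) and lower for no member, beside 2.47% and 7.44% of all genes, and this call was lost without sample 2 or sample 3. From 1 week to 3 weeks it became higher for Ctsf (0.70 ± 0.22, limma adjusted p = 0.0343) and lower for 9 members, beside 7.24% and 8.3% of all genes. The 9 were Gla, Ctse, Lipa, Gusb, Asah1, Ctsc, Atp6v1h, Atp6v1a and Ctsl, with steps between -1.09 for Gla and -0.25 for Ctsl. This count was 2 without sample 1, 4 or 5, 3 without sample 2 and 13 without sample 3, and that of Ctsf was lost without sample 1, 2, 3 or 4.

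At 3 months no hydrolase passed the test, and their log2 fold changes ran from -0.33 for Neu1, lower on the crushed side in 4 of 5 pairs, to 0.52 for Gla. Gla read 412, 649.96, 685, 478 and 388 in crushed samples and 339.5, 357, 364, 351 and 367 in contralateral samples, all 5 crushed samples above all contralateral ones (log2 fold change 0.52 ± 0.19, limma adjusted p = 0.302, n = 5 pairs). Glb1 and Ctsk were higher on the crushed side in all 5 pairs, with log2 fold changes of 0.47 and 0.83, and their groups overlapped (limma adjusted p = 0.356 and 0.321). Contralateral sample 1 of this time, which had the highest photoreceptor level of all arrays (13.31), had the lowest contralateral reading of Glb1 (520.3), Ctsk (249), Ctsc (2236) and Gla (339.5).

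The contralateral samples were set against the 5 naïve samples to see how far the reference itself moved. No member differed at 1 day, 3 days or 1 week, and 5 of 45 differed at 3 weeks, beside 0.0287%, 0%, 0.575% and 10.5% of all genes in either direction. At an unadjusted p under 0.05 the counts were 6, 4, 9 and 11. At 3 weeks Atp6v0b was higher than in naïve ONHs by 0.26. Ctse, Ctsq, Man2b1 and Ctsb were lower, by log2 differences of -1.10, -1.02, -0.53 and -0.17. Ctsq was near the floor, with a mean intensity of 29.7 and a highest of 79.7, and was too dim for the crush test. It passed the intensity filter only with the naïve arrays included, the group in which it was higher, so its call is weak. Man2b1 read 1495, 1003, 1048, 1162 and 1258 in contralateral samples at 3 weeks and 1769, 1784, 2117, 2069 and 1047 in naïve samples, and all naïve samples but sample 5 were above every contralateral sample. The crushed samples of 3 weeks, at 1581 to 1857, were inside the naïve range of Man2b1 while above all contralateral samples of that time. The count of 5 was 3, 0, 1, 0 and 11 without sample 1, 2, 3, 4 and 5 of each group.

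Of 53 further lysosome genes listed for comparison, 43 were on the array and all were tested. At 1 day 4 rose and 28 fell, against 25.4% and 29.7% of all genes. At 3 days 11 rose and 8 fell, against 25.5% and 16%. At 1 week 15 rose and 6 fell, beside 21.7% in either direction. At 3 weeks 13 rose and 3 fell, beside 12% and 12.6%, and at 3 months none passed the test. The median log2 fold change of the 43 was -0.37, -0.04, 0.05, 0.05 and 0.11. Acp5, the tartrate-resistant acid phosphatase of macrophages and osteoclasts, read 254 to 965.5 in crushed and 52.5 to 76.2 in contralateral samples at 1 day, and 1098 to 2927 in crushed and 54.98 to 330.4 in contralateral samples at 1 week. It was 3.00, 4.05, 4.31 and 2.86 higher on the log2 scale from 1 day to 3 weeks. Cd68, a membrane protein of macrophage lysosomes, rose by 1.19, 2.01, 2.04 and 1.57, and Slc11a1, a metal transporter of phagosomes, by 1.68, 1.73, 2.21 and 1.45.

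On the other side, Abca2, a lipid transporter abundant in oligodendrocytes, read 122 to 362 in crushed and 772 to 1209 in contralateral samples at 1 day, and its log2 fold changes were -2.21, -1.19, -1.75 and -0.87 from 1 day to 3 weeks. Sort1, a receptor that delivers enzymes to the lysosome, fell by 1.82, 0.60, 0.65 and 0.56, and Gnptab, which helps make the sorting signal of those enzymes, fell by 0.54 at 1 day and 0.71 at 3 weeks. Tfeb, looked at after its values were seen, fell by 0.56 at 1 day, 0.54 at 3 days and 0.52 at 1 week. Oligodendrocyte marker genes fell at the same times, with mean log2 levels of 10.19 to 11.77 in crushed and 12.17 to 12.56 in contralateral samples at 1 day. Astrocyte marker genes were lower at 1 day as well, at 10.44 to 11.08 in crushed and 11.80 to 11.93 in contralateral samples. The part of either cell type in these falls was not tested.

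Of 8 cathepsin inhibitors on the array 7 were tested. Of these 2, 3, 4 and 2 rose and 3, 1, 2 and 2 fell over the first 4 times. Over all genes 25.4%, 25.5%, 21.7% and 12% rose and 29.7%, 16%, 21.7% and 12.6% fell. Cst7, which blocks cysteine cathepsins inside microglia and other immune cells, rose late: at 3 weeks it read 780.5 to 2047 in crushed and 141 to 242 in contralateral samples, a log2 fold change of 2.79 ± 0.37 (limma adjusted p = 2.54e-05, n = 5 pairs), after 1.71 at 1 week. Cst6 rose by 0.91, 1.37 and 0.69 at 1 day, 3 days and 1 week. Serpinb1a, an inhibitor of serine proteases of neutrophils, fell by 1.37, 0.57, 0.63 and 0.78 from 1 day to 3 weeks, and Serpinb6b fell by 0.47 at 1 day and rose by 0.64, 1.18 and 1.55 afterwards. Cstb rose by 0.31, 0.28 and 0.25 at 1 day, 3 days and 1 week, and Cst3, the secreted cystatin C, fell by 0.32 at 1 day, 0.15 at 1 week and 0.15 at 3 weeks.

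Up to 3 weeks 7 members were too dim to be tested for crush. Of these, Ctsj, Ctsm, Ctsr and Ctsq are cysteine cathepsins known from the rodent placenta, and Ctsg is a serine protease of neutrophil granules. Atp6v1b1 is the B subunit of kidney and Atp6v1e2 an E subunit of testis. The mean intensity of the 7 over the 55 arrays lay between 3.79 and 31.4. Ctsg stayed between 12.8 and 55.9 in all crushed samples up to 3 weeks. Over the same times 4, 3, 4 and 1 of 5 tested neutrophil genes rose and 0, 1, 0 and 0 fell.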

How the data were processed

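Total RNA of pooled ONHs was amplified, biotin-labelled and hybridised, 1 array per sample. The authors normalized the arrays with DChip (invariant set), computed probe set values from differences between perfect match and mismatch probes, and deposited them as linear intensity values; these values were used as deposited. The floor of 20 and a log2 transformation were applied here. Neither the array maker's 64 control probe sets nor probe sets naming several genes (691) or none (1555) stood for a gene. A probe set was tested where 5 or more arrays of the model reached 50.

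Crushed and contralateral arrays from 1 day to 3 weeks (40) were fitted in one model in limma 3.58.1 (R 4.3.3), with the pair as a block, a crush term for each time and an intensity trend. The 10 arrays of 3 months were fitted alone, and the 20 contralateral and 5 naïve arrays of the first experiment without pairing. Tests were two-sided, with Benjamini-Hochberg adjustment over all probe sets tested. A gene was counted in "all genes" through its brightest probe set. In the study's design the left and right eyes of the same 2 mice made a pair of samples. That equal numbers mark such a pair is an assumption, since the labels do not state it. Deviations from group means of same-numbered samples correlated between -0.45 and 0.54. The mean correlation with samples of other numbers ran from -0.19 to 0.12, so these values do not show the pairing. Pairs and naïve samples are separate pools of mice. For crush, p-values measure how far the difference between crushed and contralateral samples varies between pairs. That spread was estimated jointly over the first 4 times, and for 3 months alone. For contralateral against naïve samples, p-values measure the spread between pools. The number of arrays limits the precision.

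Members given with every sample were, at each time, the 3 with the largest rise and the 3 with the largest fall among those past the test, plus the member of each role with the largest change. Of the comparison lists, the 2 with the largest rise and the 2 with the largest fall at each time were named. Members and lists were chosen with earlier results of these data known. The fits were tested on simulated data with independent noise. These held no pair effects and no shifts shared across an array, so they could not check the pairing or the scaling. Alternatives were other floors and filters, 2 further scalings, no pairing, each time alone, no intensity trend, other probe sets, the methods' t-test and criteria, and leaving out each sample number. Probe sets can also match transcripts other than the gene named. Protein sequences were not used here.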

Additional observations from a re-analysis of the deposited data

Results flagged for a closer look

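In 4 of 54 groups of 5 samples looked at, 1 sample stood apart from the rest by more than Dixon's critical ratio of 0.71, where chance sets apart about 1 group in 20. These were Atp6v1g2 at 1 week in crushed sample 5 (675) and in contralateral sample 4 (1942), Galns at 3 weeks in crushed sample 2 (579), and Npc1 at 3 weeks in contralateral sample 5 (2168). Both samples set apart for Atp6v1g2 had the highest photoreceptor level of their group, 11.97 and 12.79 on the log2 scale. Without sample 2 no member was at least 2-fold higher at 3 weeks.

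In 5 of 48 comparisons of named members between neighbouring times, the crush effect differed by at least 2-fold and passed limma's test of the difference. The named members were picked for large changes at single times in these same data, which favours large steps. The share of all genes with such steps was not counted. The steps from 1 day to 3 days were 2.43 for Ctse, 1.32 for Man2b1, 1.26 for Ctsf and 1.19 for Galns on the log2 scale, and that from 1 week to 3 weeks was -1.09 for Gla.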

How the results depend on the processing

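Counts that moved by more than 1.5 times, or from or to 0, were these, and the cause was not tested. At 3 days, 13 members rose, 9 fell and 1 fell 2-fold with a common median, and 5 fell with quantile normalization. At 3 days minus 1 day a common median gave 10 higher, and 1 was lower with a common median, with quantile normalization, with no filter and with no trend. Quantile normalization gave 2 higher at 1 week minus 3 days, a common median gave 2 higher at 3 weeks minus 1 week, and a floor of 50 gave 1 lower at 1 week minus 3 days. With each time in its own model 3 fell at 1 week, 0 of them 2-fold, and 2 rose 2-fold at 3 weeks. With the photoreceptor covariate, chosen after seeing the data, 2 fell 2-fold at 1 day.

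The methods' t-test at an unadjusted p of 0.05 gave 12 higher at 1 day, 15 higher and 3 lower (0 by 2-fold) at 1 week, 6 lower at 3 weeks, 3 higher and 1 lower at 3 months, and 5, 3, 6 and 9 members different from naïve over the first 4 times. After Benjamini-Hochberg adjustment it gave 10 higher at 1 day, 11 higher and 1 lower at 3 days, 6 higher (3 by 2-fold) and 3 lower (0 by 2-fold) at 1 week, 1 higher (0 by 2-fold) and 0 lower at 3 weeks, and 0 different from naïve at 3 weeks. Under the 3 criteria of the methods 0 were lower at 1 week and 0 higher at 3 weeks by 2-fold.

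The second brightest probe set, where a gene had one, gave 0, 3 and 3 members 2-fold higher at 1 day, 3 days and 3 weeks, 4 higher at 1 week minus 3 days and 3 different from naïve at 3 weeks, which was also 3 with no trend. Its log2 fold change turned to -0.16 for Gla at 3 days and to 0.16 and -0.0195 for Man2b1 at 1 day and 3 days. With the 100 bases next to the start in place of the whole promoter, 7 members held the E-box and 3 its longer form.

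Leaving out each sample number in turn gave 4 to 6 higher, 10 to 13 lower and 1 to 3 lower by 2-fold at 1 day; 15 to 19 higher, 2 to 3 lower and 0 to 1 lower by 2-fold at 3 days; 20 to 27 higher, 2 to 5 lower and 0 to 1 lower by 2-fold at 1 week; 7 to 14 higher, 0 to 1 by 2-fold, and 0 to 3 lower at 3 weeks. The steps between times ran from 10 to 14 higher, 0 to 1 higher, 0 to 2 higher and 2 to 13 lower, and differences from naïve at 3 weeks from 0 to 11.

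Without the replicate block 1 member rose at 3 months, against 0 with it, and no other count moved by more than 1.5 times. All 41 named values kept their call without the block, 5 lost it with each time in its own model, 2 with no filter, 2 with no trend, 1 with quantile normalization and 1 with a common median. No paired analysis was possible for contralateral against naïve samples because they share only a number. Values near the floor are limited by dim signal.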
